A study of Homo sapiens with 16 samples.

Results

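The nuclear RNA exosome and its adaptors were followed through 10 listed genes of the 18079 in the count table: MTREX, EXOSC3, EXOSC10, DIS3, ZCCHC8, RBM7, ZFC3H1, TENT4B, MPHOSPH6 and C1D. The genes were chosen by name, with results of these data already known, so their own levels are given as a description without a test. All 10 passed the filter on low counts. The cells were wild type HL60, an established human myeloid leukaemia line. They were kept for 5 h with the CDK7 inhibitor SY-351 at 50 nM, or with its solvent DMSO as control. The labels give both groups as the same wild type line and name no difference between them but the agent. Polyadenylated RNA was sequenced, with 4 numbered replicates a group and 2 technical repeats of each, so that 16 records stood behind 8 count columns. The study asked how CDK7 acts on gene expression, splicing and transcription termination. The labels do not tie the replicates to separate cultures, so a p-value here speaks for the spread between these samples and no more.

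The RNA exosome is a barrel of catalytically inactive subunits that threads RNA from its 3' end to attached nucleases. In the nucleus the helicase MTREX (also called MTR4 or SKIV2L2) unwinds substrates and feeds them in, and adaptors decide which RNA it meets. The nuclear exosome targeting (NEXT) complex brings short unprocessed transcripts such as promoter upstream RNAs, the poly(A) tail exosome targeting (PAXT) connection brings polyadenylated nuclear RNA, and the TRAMP complex adds short tails to RNA marked for decay. The same machinery trims ribosomal RNA precursors and small nucleolar RNAs.

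Library totals were 103.7 to 124.2 M counts for DMSO and 43.3 to 77.9 M for SY-351. A count of 3 equalled 0.0241 to 0.0693 CPM, the count over the library total in M. DMSO replicates 1 and 2, called the first control pair below, stood apart from every other library. Across genes (not independent replicates), Pearson's r of log2 CPM was 0.983 between them, 0.762 to 0.794 with DMSO 3 and 4, the second control pair, and 0.727 to 0.759 with the SY-351 libraries. The second pair was closer to the SY-351 libraries (0.937 to 0.954), and the SY-351 libraries were at 0.987 to 0.994 among themselves. Every log2 fold below is therefore given with all 8 libraries and also without DMSO 1 and 2. Levels of genes are TMM-scaled CPM, in which edgeR adjusts the library total for composition. The promyelocyte markers MPO, CTSG and CD33 (3 of 6 measured) summed to 12390 to 48135 CPM in DMSO and 28946 to 33385 CPM with SY-351. Nearly all of this sum was MPO, and the 3 did not move together. MPO, CTSG and CD33 averaged 44737, 51.6 and 4.37 CPM in DMSO 1 and 2. Their means were 13940, 246 and 74.4 CPM in DMSO 3 and 4, and 30599, 615 and 76.7 CPM with SY-351. Markers of B cells summed to 5.25 to 13.5 and 16.0 to 17.6 CPM (3 of 3 measured), of T cells to 0.206 to 2.27 and 2.50 to 3.70 CPM (2 of 3), of epithelium to 1.48 to 3.05 and 3.23 to 4.84 CPM (4 of 4), of fibroblasts to 0.411 to 1.19 and 0.593 to 0.789 CPM (2 of 3) and of erythroid cells to 0.103 to 0.642 and 0.379 to 0.969 CPM (2 of 3). The part of these markers in the results was not tested. The B cell, T cell and epithelial sums were higher in every SY-351 library than in every DMSO library.

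With SY-351, EXOSC3, DIS3, ZCCHC8 and TENT4B were lower in each of the 4 treated libraries than in each of the 4 DMSO libraries. MTREX, EXOSC10, RBM7 and MPHOSPH6 were also lower than DMSO 3 and 4, but not than DMSO 1 and 2. The treated values of ZFC3H1 and C1D overlapped those of DMSO 3 and 4. No gene of the set was higher in all treated libraries than in all controls. In the edgeR fit over all 15472 tested genes, 4 of the 10 were past an adjusted p of 0.05 towards lower levels and 0 towards higher, against 13.6% and 2.91% of all genes. Without DMSO 1 and 2, 8 of the 10 were past it towards lower levels and 0 towards higher, against 26.4% and 21.9% of all genes. With DMSO 1 and 2 as the only controls, the count was 4 lower and 4 higher, against 38.4% and 40.8%. The 4 genes below all DMSO libraries stand beside 18.2% of all genes in that position, and the 8 below DMSO 3 and 4 beside 30.3%. Since the genes were chosen with this contrast known, nothing is read from these counts. Leaving out any single SY-351 library left 1 of the 4 calls, EXOSC3, and leaving out any single DMSO library left 3, losing TENT4B without DMSO 1 or 2 and ZCCHC8 without DMSO 3 or 4. The median log2 fold of the 10 genes was -0.71 with 8 libraries and -0.91 without DMSO 1 and 2, against 0.00 and 0.01 for all genes. No added RNA standard was counted, so the levels are relative, and in bulk RNA fewer cells of a kind cannot be told apart from less RNA per cell.

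**Figure D1:**
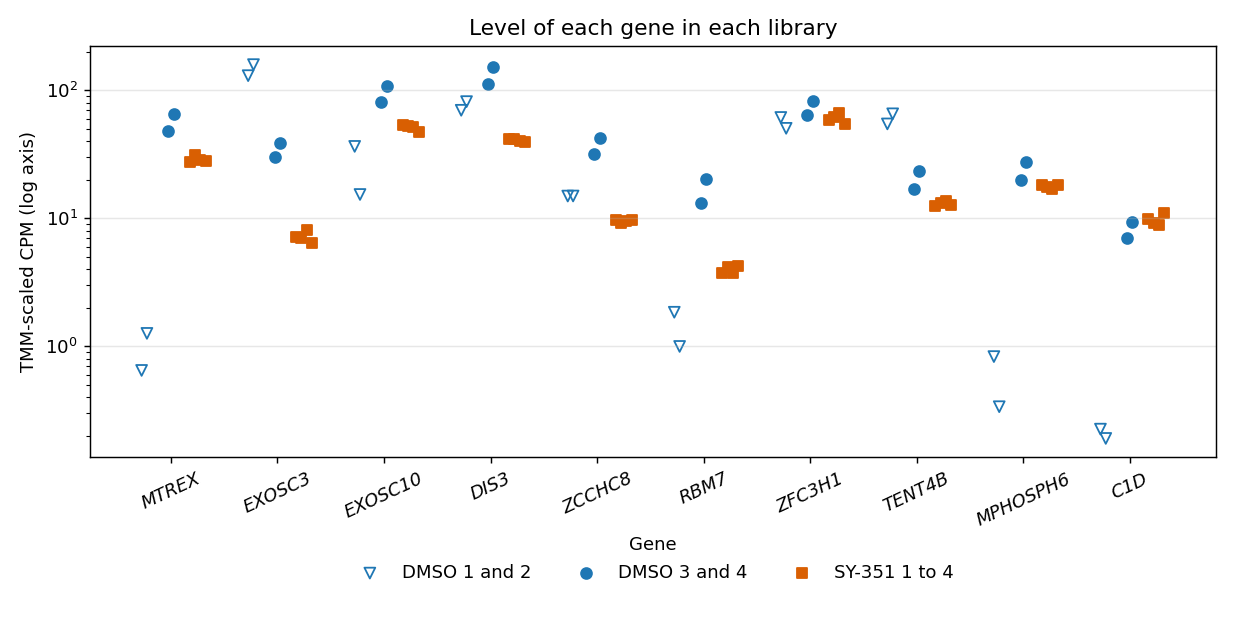
Level of each of the 10 genes in each library, in TMM-scaled CPM on a log axis, with open triangles for DMSO 1 and 2, filled circles for DMSO 3 and 4 and squares for the 4 SY-351 libraries. The squares lie close together for each gene, while the triangles of MTREX, MPHOSPH6 and C1D lie far below the circles and those of EXOSC3 and TENT4B above them.

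EXOSC3, also called RRP40, is a cap subunit of the exosome barrel that touches incoming RNA. Its row covers 1 interval of 5380 bases on the minus strand of chromosome 9 (37779713 to 37785092, GRCh38). The first control pair read 130.2 and 159 CPM, the second pair 30.4 and 39.0 CPM, and the SY-351 libraries 7.16, 6.97, 8.17 and 6.47 CPM. All treated libraries were thus below all controls, and the controls themselves differed between the 2 pairs. The DMSO mean was 89.6 ± 64.6 CPM (SD, n = 4) and the SY-351 mean 7.19 ± 0.717 CPM (SD, n = 4). SY-351 over DMSO gave a log2 fold of -3.64 ± 0.59 (SE), or 12.5-fold lower, with 8 libraries. It was -2.25 ± 0.16 (SE), or 4.75-fold lower, without DMSO 1 and 2. No variation of EXOSC3 is listed in the authors' deposited table of splicing.

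DIS3 is the processive exoribonuclease and endonuclease at the exit of the nuclear exosome barrel. Its interval lies on the minus strand of chromosome 13 (72752169 to 72781900, GRCh38) and shares 4030 bases with BORA on the other strand. Reads were counted by strand, per the file headers. It read 69.9 and 81.6 CPM in the first control pair, 112 and 152 CPM in the second and 41.8, 41.4, 40.2 and 39.8 CPM in SY-351 1 to 4. The treated values averaged 40.8 ± 0.985 CPM (SD, n = 4), with the smallest spread of the set relative to the mean (2.41%), and none reached a control. As a log2 fold this was -1.35 ± 0.30 (SE), and -1.67 ± 0.15 (SE) without DMSO 1 and 2. DIS3 was lower than either pair of controls, with 3.18-fold against DMSO 3 and 4 and 2.05-fold against DMSO 1 and 2.

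The start of DIS3 was also spliced differently. In the authors' deposited table, exon 3 was joined to exon 2 in 67.4% of control and 34.5% of SY-351 transcripts (estimated use), with a probability of 0.953 that the difference was at least 20 points. A 68-base exon that lies between exons 1 and 2 was joined to exon 3 in 31.5% and 63.5% (probability 0.941) in the authors' deposited table. Seen from exon 1, the same table of the authors' deposited values gives the 68-base exon 43.8% and 69.1% (probability 0.855) and exon 2 55.1% and 28.7% (probability 0.899). Both exons are in GENCODE v29, in separate DIS3 transcripts, and both are coding. Exon 2 (chr13:72780846-72781003, GRCh38, minus strand) has 158 bases and the other exon (chr13:72781289-72781356) has 68, and each leaves a remainder of 2 when divided by 3. The 2 alternatives are shown because 1 replaces the other, with the exchanged exon in capitals and 20 bases of the exons on either side in lower case.
DIS3 exon 2: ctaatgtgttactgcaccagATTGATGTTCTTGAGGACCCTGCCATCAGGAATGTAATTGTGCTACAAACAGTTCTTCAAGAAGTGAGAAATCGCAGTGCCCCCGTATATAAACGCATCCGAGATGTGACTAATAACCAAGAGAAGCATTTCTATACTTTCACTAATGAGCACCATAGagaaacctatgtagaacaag
DIS3 68-base exon: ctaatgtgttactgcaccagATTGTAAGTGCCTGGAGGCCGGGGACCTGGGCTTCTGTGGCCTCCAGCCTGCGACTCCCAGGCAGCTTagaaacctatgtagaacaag
The shorter exon is richer in G and C, at 64.7% against 41.1%.

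EXOSC10, also called RRP6, is the distributive 3' exonuclease that sits on the cap of the nuclear exosome. Its interval lies on the minus strand of chromosome 1 (11066618 to 11099869, GRCh38). The first control pair read 36.5 and 15.4 CPM, the second pair 80.8 and 108 CPM, and the SY-351 libraries 53.7, 52.8, 51.5 and 47.1 CPM. The treated libraries lay between the 2 pairs of controls. The log2 fold was -0.23 ± 0.54 (SE) with 8 libraries and 0.24 without DMSO 4 alone. It was -0.86 ± 0.16 (SE) without DMSO 1 and 2, and 0.84 ± 0.33 (SE) with them as the only controls. For EXOSC10 the authors' deposited table lists 1 variation, in which the join of exon 9 to exon 10 had an estimated use of 96.3% in control and 77.4% with SY-351 (probability 0.541). Skipping of exon 10, of 191 coding bases, was at 1.1% and 16.0% (probability 0.0496) in the authors' deposited table, so neither entry reached 0.95.

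MTREX, the helicase shared by the NEXT, PAXT and TRAMP adaptors, had the widest gap between the controls. Its interval is the longest of the set, 117592 bases on the plus strand of chromosome 5 (55307988 to 55425579, GRCh38), and shares 726 bases with PLPP1 on the other strand. The first control pair read 0.649 and 1.26 CPM, from 46 and 86 counts, and the second pair 48.1 and 65.0 CPM, from 9599 and 9181 counts. The SY-351 libraries measured 27.4, 31.1, 28.5 and 28.2 CPM, between the 2 pairs. The DMSO mean was 28.8 ± 32.9 CPM (SD, n = 4) and the SY-351 mean 28.8 ± 1.61 CPM (SD, n = 4), so that over 8 libraries the log2 fold came to 0.00 ± 1.20 (SE). Leaving out 1 DMSO library moved it between -0.41 (without DMSO 1) and 0.81 (without DMSO 4). Against DMSO 3 and 4 only, MTREX was 1.93-fold lower, a log2 fold of -0.95 ± 0.16 (SE).

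The end of the MTREX transcript held the largest splicing differences of the set. Exon 26 was joined to the last exon, 27, in 98% of control and 62.0% of SY-351 transcripts (probability 1.00) in the authors' deposited table. A join from exon 26 to a splice acceptor that is not in the annotation, after 1168 bases of the 1737-base last intron, went from 0.1% to 30% (probability 0.972) in the authors' deposited table. A further unannotated acceptor in that intron was listed at 0 and 4.1%, and the retained first stretch of the intron at 1.9% and 4.1%, in the authors' deposited table. Their expected differences in the authors' deposited table were only 0.205 and 0.203 points (probability 7.19e-16 and 6.36e-16). Seen from the new acceptor, the authors' deposited table gives 4.6% spliced in control and 99.6% with SY-351, the rest being unspliced intron (probability 1.00). These are shares of the join and the intron alone. Seen from exon 26, the 2 entries were at only 0.1% and 1.9% in control, and at 30% and 4.1% with SY-351, in the authors' deposited table. That table has no end for the exon behind the acceptor. Further upstream, the join of exon 21 to exon 22 was at 99.4% and 76.0% (probability 0.691) and that of an unannotated 226-base exon to exon 22 at 0.2% and 23.9% (probability 0.683) in the authors' deposited table. The annotated join is shown because its use was lower with SY-351: exon 26 (105 bases) is in lower case, and the 50 bases of exon 27 before the stop codon are in capitals (ends at chr5:55422878 and chr5:55424769, GRCh38, plus strand).
MTREX exon 26 to exon 27: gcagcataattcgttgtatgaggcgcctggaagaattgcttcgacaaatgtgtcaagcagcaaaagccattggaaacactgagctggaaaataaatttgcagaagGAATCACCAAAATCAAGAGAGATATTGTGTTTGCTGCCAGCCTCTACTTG
Both stretches are coding.

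**Figure D2:**
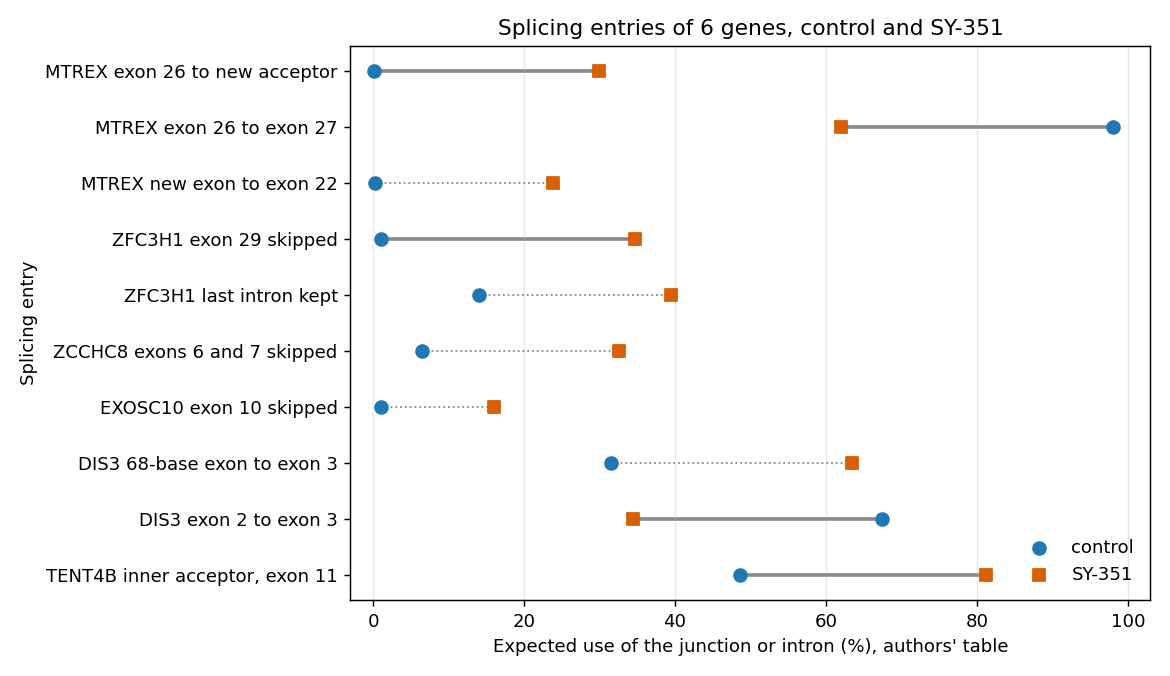
Estimated (expected) use in percent of 10 junctions or introns in 6 of the genes, from the authors' deposited table, with circles for control and squares for SY-351. Solid lines join entries with a probability of at least 0.95 for a difference of 20 points, and dotted lines the others. The join to the new MTREX acceptor moved from 0.1% to 30% and skipping of ZFC3H1 exon 29 from 1.0% to 34.7%.

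The NEXT complex holds MTREX together with ZCCHC8, its scaffold, and RBM7, which binds RNA. ZCCHC8 lies on the minus strand of chromosome 12 (122471599 to 122500932, GRCh38). It read 14.9 and 15.0 CPM in the first control pair, 31.7 and 42.7 CPM in the second and 9.67, 9.16, 9.45 and 9.64 CPM in SY-351 1 to 4. All treated libraries were below all controls, with a treated mean of 9.48 ± 0.235 CPM (SD, n = 4) and a DMSO mean of 26.1 ± 13.6 CPM (SD, n = 4). SY-351 over DMSO gave a log2 fold of -1.46 ± 0.40 (SE), and -1.95 ± 0.15 (SE), or 3.87-fold lower, without DMSO 1 and 2. For ZCCHC8, the join of exon 5 to exon 6 was at 93.1% in control and 66.5% with SY-351 (probability 0.709) in the authors' deposited table. Joint skipping of exons 6 and 7, of 170 coding bases together, was at 6.5% and 32.6% (probability 0.679) in the authors' deposited table, and neither entry reached 0.95.

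RBM7 lies on the plus strand of chromosome 11 (114400665 to 114410607, GRCh38). The first control pair read 1.85 and 0.999 CPM from 131 and 68 counts, the second pair 13.1 and 20.3 CPM, and the SY-351 libraries 3.75, 4.20, 3.74 and 4.24 CPM. The treated libraries were above the first pair of controls and below the second. As a log2 fold this was -1.19 ± 0.86 (SE) with 8 libraries and -0.39 without DMSO 4 alone. It was -2.05 ± 0.18 (SE), or 4.13-fold lower, without DMSO 1 and 2, and 1.34 ± 0.26 (SE) against DMSO 1 and 2 only. The 2 NEXT-specific subunits were thus both lower than DMSO 3 and 4, by 3.87- and 4.13-fold. No variation of RBM7 is listed in the authors' deposited table.

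ZFC3H1 is the large zinc finger scaffold of the PAXT connection. It lies on the minus strand of chromosome 12 (71609600 to 71663848, GRCh38). It read 61.4 and 50.5 CPM in the first control pair, 63.8 and 82.8 CPM in the second and 58.7, 62.5, 66.4 and 54.5 CPM in SY-351 1 to 4. With this scaling the groups overlapped under either choice of controls. Scaled to library totals it read 102.5 and 100.03 CPM in DMSO 3 and 4, above the 55.9 to 71.0 CPM of the SY-351 libraries. The log2 fold was -0.10 ± 0.25 (SE) with 8 libraries, 0.07 without DMSO 4 alone and -0.26 ± 0.16 (SE) without DMSO 1 and 2. Scaled to library totals without the first control pair (an alternative added once the data had been seen), it was -0.68, and called, where the median of all genes was -0.45.

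While the level of ZFC3H1 overlapped between groups, its splicing entries differed. Skipping of exon 29 had an estimated use of 1.0% in control and 34.7% with SY-351 seen from exon 28, and 1.3% and 35.7% seen from exon 30, in the authors' deposited table (probability 1.00 for both). These are 2 views of 1 event, and the skipping join is not in the annotation used there. The last intron, of 129 bases, was kept in 14% and 39.5% (probability 0.908) in the authors' deposited table. Exon 29 (chr12:71614834-71614938, GRCh38, minus strand) has 105 coding bases, a multiple of 3, so its loss keeps the reading frame. It is shown in capitals between 20 bases of the exons on either side, because its skipping was the difference with the highest probability in this gene.
ZFC3H1 exon 29: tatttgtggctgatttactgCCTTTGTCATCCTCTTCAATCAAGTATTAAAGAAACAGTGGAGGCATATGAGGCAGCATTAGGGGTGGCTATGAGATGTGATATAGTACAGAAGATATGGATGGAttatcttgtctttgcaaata

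TENT4B, also called PAPD5, is a poly(A) polymerase of the human TRAMP complex and tails RNA for exosome decay or trimming. It lies on the plus strand of chromosome 16 (50152910 to 50235308, GRCh38). The first control pair read 54.7 and 65.6 CPM, the second pair 17.1 and 23.4 CPM, and the SY-351 libraries 12.5, 13.3, 13.7 and 12.7 CPM. All treated libraries were below all controls, although the gap to DMSO 3 was small with TMM scaling. Scaled to library totals, TENT4B read 27.4 and 28.3 CPM in DMSO 3 and 4, against 12.8 to 14.6 CPM with SY-351. SY-351 over DMSO gave a log2 fold of -1.62 ± 0.45 (SE) with 8 libraries, and -0.61 ± 0.16 (SE), or 1.53-fold lower, without DMSO 1 and 2. With EXOSC3, it was 1 of the 2 genes of the set whose first control pair exceeded the second.

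The acceptor used at TENT4B exon 11 differed as well. The annotated join of exon 10 to exon 11 was at 50.2% in control and 16.2% with SY-351 (probability 0.996), in the authors' deposited table. A join from the same donor to an acceptor 141 bases further in was at 48.6% and 81.2% (probability 0.99), in the authors' deposited table. The inner acceptor is marked there as not annotated, yet the authors' deposited table gives it a use close to the annotated one in control. The 141 bases that the inner acceptor leaves out (chr16:50225098-50225238, GRCh38, plus strand) are coding and a multiple of 3. They are shown in capitals with 20 bases of exon 10 before and of exon 11 after.
TENT4B start of exon 11: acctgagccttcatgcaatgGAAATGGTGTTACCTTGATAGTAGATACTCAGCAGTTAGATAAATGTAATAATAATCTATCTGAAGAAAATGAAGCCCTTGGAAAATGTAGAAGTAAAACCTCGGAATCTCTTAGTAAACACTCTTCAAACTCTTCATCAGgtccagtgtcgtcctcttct

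MPHOSPH6 and C1D are small cofactors that tie MTREX and EXOSC10 to the exosome in ribosomal RNA processing. MPHOSPH6 (chromosome 16, 82148161 to 82170224, minus strand, GRCh38) read 0.832 and 0.338 CPM in the first control pair, from 59 and 23 counts. It read 20.1 and 27.4 CPM in the second pair, and 18.2, 17.7, 17.1 and 18.3 CPM in the SY-351 libraries. The treated libraries lay just under DMSO 3 and far over DMSO 1 and 2. Its log2 fold was 0.55 ± 1.13 (SE) with 8 libraries, 1.35 without DMSO 4 alone, 0.16 without DMSO 1 alone and 0.15 without DMSO 2 alone. Without both DMSO 1 and 2 it was -0.39 ± 0.16 (SE).

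C1D (chromosome 2, 68041129 to 68063004, minus strand, GRCh38) read 0.226 and 0.191 CPM in the first control pair, from 16 and 13 counts. It read 6.96 and 9.42 CPM in the second pair, and 9.87, 9.14, 8.83 and 11.1 CPM in the SY-351 libraries. The treated libraries overlapped DMSO 4 and lay above the other controls. Its log2 fold was 1.21 ± 1.12 (SE) with 8 libraries, and 0.27 ± 0.18 (SE) without DMSO 1 and 2, turning to -0.16 when those 6 libraries were scaled to their totals. Leaving out DMSO 4 alone gave 2.00. C1D was thus the only gene of the set above 0 without DMSO 1 and 2 under the main scaling, and neither it nor MPHOSPH6 has a variation in the authors' deposited table.

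**Figure D3:**
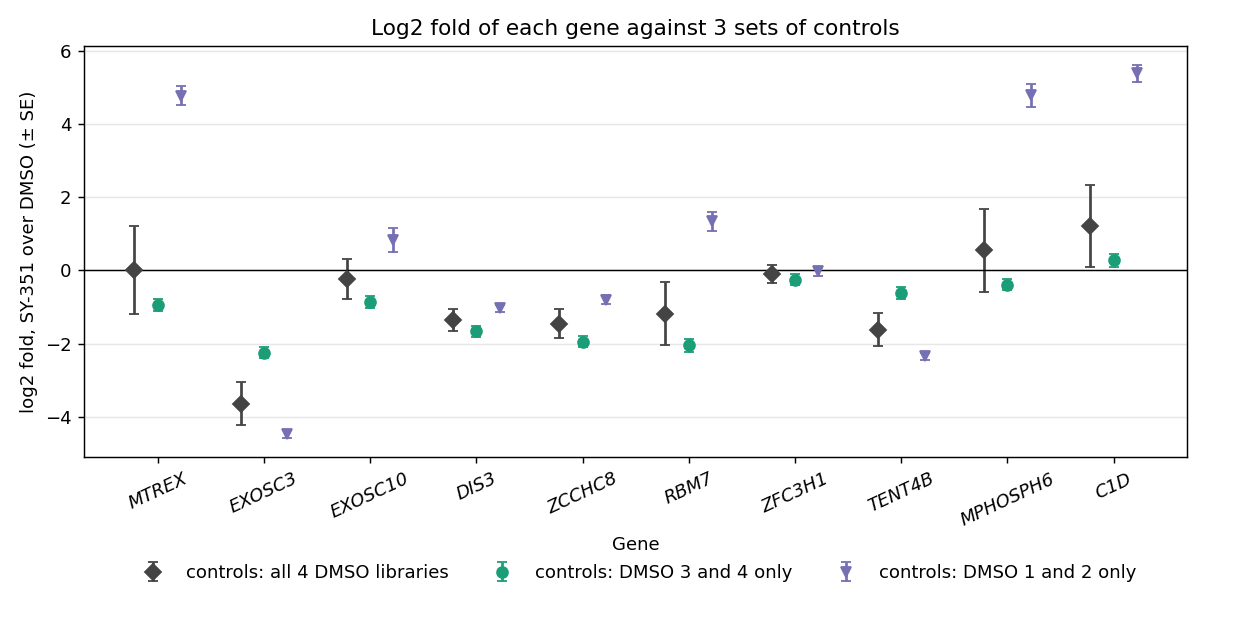
Log2 fold of SY-351 over DMSO for each gene, with bars for SE, against all 4 DMSO libraries (diamonds), DMSO 3 and 4 only (circles) and DMSO 1 and 2 only (triangles). The 3 estimates all lie below 0 for EXOSC3, DIS3, ZCCHC8, TENT4B and, at -0.26 to -0.03, ZFC3H1. For C1D all 3 lie above 0, and for MTREX they run from -0.95 to 4.77.

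The split between the controls was uneven within the set. In 8 of the 10 genes the first control pair was below the second, and in 2 above it. As log2 of the mean TMM-scaled CPM plus 0.1, the difference of DMSO 1 and 2 from DMSO 3 and 4 was -5.75 for MTREX, -5.12 for MPHOSPH6, -4.75 for C1D and -3.46 for RBM7. It was -1.86 for EXOSC10, -1.31 for ZCCHC8, -0.80 for DIS3, -0.39 for ZFC3H1, 1.57 for TENT4B and 2.06 for EXOSC3. Over all tested genes this difference went with the GC content of the most GC-rich 600 bases of the transcript. Its median was -1.71 in the 3024 genes of lowest GC (34 to 51.2%) and 1.6 in the 2980 of highest GC (68.3 to 87.2%). The 4 genes with the largest deficit had a GC of 42.2 to 50.7%, within the range of those 3024. TENT4B had 76.2% and ZFC3H1 65.7%, while EXOSC3 was above 0 at 56.3%. The part of this GC trend in the folds was not tested. DMSO 3 and 4 differed from each other as well, since DMSO 4 was 1.29 to 1.55 times DMSO 3 in these 10 genes with TMM scaling and 0.968 to 1.17 times with total scaling.

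**Figure D4:**
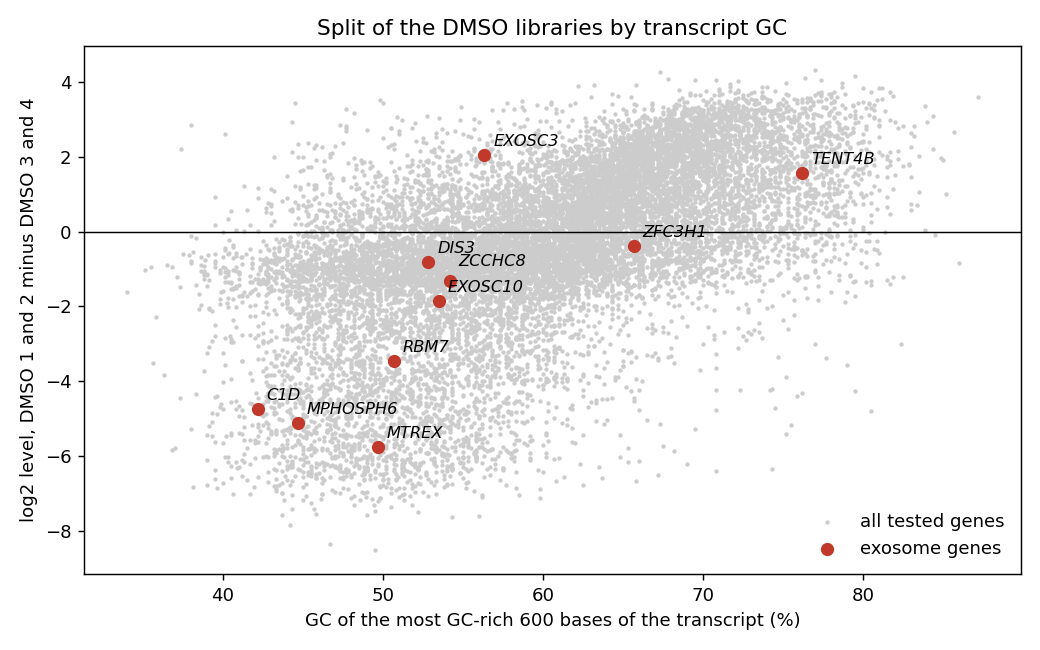
Difference between the control pairs (log2 level of DMSO 1 and 2 minus DMSO 3 and 4, pseudocount 0.1 CPM) against the GC content in percent of the most GC-rich 600 bases of the transcript, for tested genes with a transcript sequence (grey) and the 10 exosome genes (red). MTREX, MPHOSPH6, C1D and RBM7 lie lowest, at 42.2 to 50.7% GC, and EXOSC3 and TENT4B lie above 0.

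Between genes, levels were compared as TMM-scaled CPM per kb of spliced transcript, in the DMSO 3 and 4 libraries. These values are approximate, since reads were counted over introns too. The length is also that of the 1 transcript matched to each row, while reads of any other transcript in the interval count as well. EXOSC3 was highest at 39.5 and 50.8 CPM per kb, on a short transcript of 0.768 kb, overlapped by EXOSC10 at 29.7 and 39.8 and followed by MPHOSPH6 at 18.2 and 24.8. MTREX, ZCCHC8, DIS3, C1D and ZFC3H1 followed with means of 13.5, 12.6, 12.4, 11.1 and 10.1 CPM per kb, and each overlapped its neighbour in this order. RBM7 and TENT4B were lowest, with overlapping values of 3.64 and 5.66 and of 3.68 and 5.05 CPM per kb. With SY-351 the order changed at the top: EXOSC10 led at 18.8 ± 1.07 CPM per kb (SD, n = 4), then MPHOSPH6 at 16.2 ± 0.500 and C1D at 13.2 ± 1.35 (SD, n = 4). EXOSC3 came to 9.37 ± 0.933, above ZFC3H1 at 8.30 ± 0.699 and MTREX at 6.87 ± 0.383 CPM per kb (SD, n = 4), and its range overlapped that of ZFC3H1. DIS3 and ZCCHC8 came to 3.85 ± 0.0929 and 3.21 ± 0.0795, TENT4B to 2.81 ± 0.112 and RBM7 to 1.11 ± 0.0759 CPM per kb (SD, n = 4), with no overlap between these 4.

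Across the set, the authors' deposited table lists 11 splicing variations in 6 of the 10 genes, of 6716 variations in 3700 genes. A variation is a set of junctions that share 1 exon end. Of the 11, 6 held an entry with a probability of at least 0.95, in MTREX, ZFC3H1, TENT4B and DIS3, against 55.7% of all variations in the authors' deposited table. The authors' deposited table can list 1 junction from each of its ends, so entries are counted here and not separate junctions. Of 20 unannotated entries in these genes, 7 were used more with SY-351 by 5 points or more and 0 less. The shares of all unannotated entries were 32.0% and 5.92% in the authors' deposited table. The 7 include the ZFC3H1 skipping join and the MTREX join to the new acceptor, each from both ends. Of 15 annotated junction entries, 3 were used more and 10 less by 5 points or more. The shares of all annotated junction entries were 30.4% and 44.7% in the authors' deposited table. The table holds no value per sample, so the spread behind these entries is not known, and no label says which libraries entered it.

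The pathway list held 28 other tested genes. In the 8-library edgeR fit 3 of them fell and 0 rose, and without DMSO 1 and 2, 11 fell and 4 rose, against the shares of all genes given above. With DMSO 3 and 4 as controls and total scaling, 19 were lower and 1 higher, against 43.3% and 13.1% of all genes. DMSO 1 and 2 as the only controls gave 10 lower and 16 higher. Among the 8 other ring and cap subunits, 1 fell with 8 libraries, and 5 fell and 1 rose without DMSO 1 and 2 (6 and 0 with total scaling). EXOSC4, a ring subunit also called RRP41, read 139 and 150.3 CPM in the first control pair, 15.1 and 20.3 CPM in the second and 2.25 to 2.74 CPM in the SY-351 libraries. Its log2 fold was -4.99 ± 0.86 with 8 libraries and -2.77 ± 0.18 without the first control pair (SE; adjusted p = 0.00899 and 7.59e-49, edgeR). Like EXOSC3, it was below all controls in all 4 treated libraries. The ring subunits EXOSC5 and EXOSC6, with the highest mean CPM of that list, stood at log2 folds of -0.94 ± 0.56 and -2.10 ± 0.63 (SE; adjusted p = 0.286 and 0.0563, edgeR). Without DMSO 1 and 2 EXOSC5 rose by 0.51 ± 0.16 (SE, edgeR adjusted p = 0.00496) and EXOSC6 fell by 0.42 ± 0.16 on the log2 scale (SE, edgeR adjusted p = 0.0159). With total scaling of those 6 libraries the EXOSC5 call ended, at 0.10 (edgeR adjusted p = 0.3).

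Of 13 other nuclear adaptors and partners, 2 fell and 0 rose with 8 libraries, and 5 fell and 2 rose without DMSO 1 and 2 (9 and 1 with total scaling). ZC3H18, which links the cap-binding complex to NEXT and PAXT, fell with a log2 fold of -3.32 ± 0.59 (SE; adjusted p = 0.0099, edgeR), and -1.93 ± 0.15 (SE, edgeR adjusted p = 8.04e-35) without DMSO 1 and 2. Its call with 8 libraries ended without SY-351 1 or SY-351 3 (edgeR adjusted p = 0.0521 and 0.051). WDR74, a nucleolar partner of MTREX, had a log2 fold of -1.43 ± 0.37 (SE; adjusted p = 0.0342, edgeR), and -0.69 ± 0.16 (SE, edgeR adjusted p = 4.02e-05) without DMSO 1 and 2. The WDR74 call with 8 libraries ended without DMSO 1, DMSO 2 or any single SY-351 library (edgeR adjusted p of 0.0749 to 0.116). NOP53, which recruits MTREX to ribosomal RNA precursors, read 4326 and 4666 CPM in the first control pair, 381 and 479.6 CPM in the second and 1059 to 1185 CPM in the SY-351 libraries. Its log2 fold was -1.17 ± 0.84 (SE, edgeR adjusted p = 0.374) with 8 libraries and 1.37 ± 0.18 (SE, edgeR adjusted p = 9.11e-14) without DMSO 1 and 2. SRRT, the ARS2 protein of the cap-binding complex, had -0.13 ± 0.35 with 8 libraries and 0.39 ± 0.16 without DMSO 1 and 2 (SE; adjusted p = 0.823 and 0.0341, edgeR). With total scaling of those 6 libraries the SRRT call ended, at -0.029 (edgeR adjusted p = 0.593).

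Of 7 genes of the cytoplasmic exosome, its SKI cofactors and the exonucleases outside the exosome, 0 passed with 8 libraries, and 1 fell and 1 rose without DMSO 1 and 2 (4 and 0 with total scaling). XRN2, the nuclear 5' to 3' exonuclease of transcription termination, had a log2 fold of 0.03 ± 0.26 with 8 libraries and -0.17 ± 0.16 without DMSO 1 and 2 (SE; adjusted p = 0.939 and 0.41, edgeR). With total scaling of those 6 libraries XRN2 fell by 0.60 on the log2 scale (edgeR adjusted p = 3.33e-06). DIS3L2, the cytoplasmic nuclease of uridylated RNA, had -0.78 ± 0.41 and 0.08 ± 0.16 in the same fits (SE; adjusted p = 0.232 and 0.746, edgeR). All of these lists were written with earlier results known. Splicing variations were listed for 11 of the 29 pathway genes with a row, and 10 of these had one past a probability of 0.95, in the authors' deposited table. Over all genes, 16.4% of those with a count row were listed under the same symbol in the authors' deposited table. Earlier names were also searched for the pathway genes but not for most other genes, so the 16.4% is a minimum. Of the 3700 listed genes, 64.2% had a variation past 0.95 in the authors' deposited table. EXOSC9, a ring subunit, had the most, with 4 of 5 past it in the authors' deposited table.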

How the data were processed

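Polyadenylated RNA of 8 HL60 libraries was analysed. The deposited gene table holds raw counts over 1 interval per RefSeq transcript, introns included, which the authors took with featureCounts 1.6.2 (strand setting 1), per the file headers. The submitters' processing notes name GRCh38 and DESeq2. The aligner and the way technical repeats were merged are not given in the sources used here. Of 18093 rows, 17871 were matched to a symbol through a RefSeq table, 132 through GENCODE v29 and 90 not at all, and 14 that shared a symbol were set aside.

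The other deposited file holds the authors' own comparison of splicing (expected inclusion, its difference and a probability of at least 20 points), with MAJIQ and Voila column names, per the file headers. Its difference is control minus SY-351 (sign checked in 17265 entries, 100% matched) and was turned round. It uses another build, so its coordinates are not printed, and exons were matched to GENCODE v29 by length. Its folder name says that outliers were left out, with no word on which. Printed sequences are GENCODE v29 transcript sequence on GRCh38.

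The test was the robust quasi-likelihood fit of edgeR 4.0.16 (R 4.3.3) after TMM scaling and filterByExpr, with group as the only term, two-sided, with Benjamini-Hochberg adjustment over all genes and a threshold of 0.05. SE is the log2 fold over the square root of F, and CPM are TMM-scaled. The members and lists were chosen with earlier results of these data known. All members are named, and from each other list up to 3 genes past the threshold and the 2 with the highest CPM. Of 32 other pathway genes, 29 had a row and 28 passed the filter. A list of 24 snoRNA host genes had 0 rows in the table, so it gave no result. The markers ELANE, AZU1, PRTN3 and COL1A1 were not analysed here. Alternatives were DESeq2 1.42.0, other scalings, no filter, a replicate block, other sets of controls and leaving out each library.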

Additional observations from a re-analysis of the deposited data

How the results depend on the processing

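For all genes the count was 2550, with 7638 without DMSO 1 and 2, 8913 with total count scaling added to that, 12368 with DMSO 1 and 2 as the only controls, 4530 with DESeq2, and 539 to 5323 when single libraries were left out. For the 10 exosome genes it was 4, with 2 under total count scaling, 2 with no filter, 8 without DMSO 1 and 2, 9 with total count scaling added, 8 with DMSO 1 and 2 only and 1 to 3 without single libraries. For the other pathway genes it was 3, with 15, 20 (19 lower, 1 higher) and 26 under the same 3 choices, 5 with DESeq2 and 1 to 5 without single libraries. Total count scaling without DMSO 1 and 2 was chosen after seeing the data, and under it 2065 genes were higher and 6848 lower, in place of 3466 and 4172. With the replicate block 0 of all genes, 0 of the 10 and 0 of the other pathway genes were called. Between libraries of the same number, deviations from the group means correlated at -0.015, -0.041, 0.006 and -0.18. The DMSO deviations hold the split of DMSO 1 and 2 from DMSO 3 and 4, so these values cannot settle whether the numbers pair the samples. Under the block the log2 fold of MTREX was 1.98, that of RBM7 -0.27 and the median of the 10 genes -0.17.

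Of 160 member folds under alternatives, 113 kept direction and side of the threshold, 24 lost and 8 gained the call, and 15 changed sign, of which 5 (MTREX, MPHOSPH6 and RBM7) also gained it. The log2 fold of MTREX was -0.38 under total count scaling, -0.95 without DMSO 1 and 2, -1.37 with total count scaling added, -0.41, -0.40 and -0.04 without DMSO 1, DMSO 2 or SY-351 2, and -0.00492 with DESeq2. EXOSC10 was at 0.10 with the replicate block, 0.84 with DMSO 1 and 2 only and 0.24 without DMSO 4, RBM7 at 1.34 with DMSO 1 and 2 only, and ZFC3H1 at 0.074 without DMSO 4. Without DMSO 1 and 2, MPHOSPH6 was at -0.39 (-0.81 with total count scaling), C1D at -0.16 with total count scaling, EXOSC5 at 0.51 (0.10), NOP53 at 1.37 (0.94), SRRT at 0.39 (-0.029) and DIS3L2 at 0.078. SRRT was at 0.064 under total count scaling and 0.12 without DMSO 1. XRN2 was at -0.0897 with DESeq2 size factors, -0.0896 with DESeq2, -0.016 under total count scaling, -0.17 without DMSO 1 and 2 (-0.60 with total count scaling), and -0.033 and -0.064 without DMSO 1 or DMSO 2. Over single libraries left out, the folds ran up to 0.81 for MTREX, down to -0.55 for EXOSC10, -0.20 for ZFC3H1 and -0.27 for SRRT, and up to 0.23 for XRN2. The cause of these changes was not tested. The EXOSC3 call held without any single library (edgeR adjusted p of 0.00365 to 0.0473) but not with the replicate block (edgeR adjusted p = 0.0754). As EXOSC3 was chosen with results of these data known, nothing more is read from this. Of 11 splicing variations, 7 passed at a probability of 0.90 and 5 at 0.99, against 64.4% and 42.96% of all 6716 in the authors' deposited table. All 11 passed at a difference of 0.1, as did 100% of the 6716, so this cutoff cannot tell the set from the rest. Counts of 13 to 131 lay behind MTREX, RBM7, MPHOSPH6 and C1D in DMSO 1 and 2. The SE of the MTREX fold was 0.25 against that pair only and 1.20 with all 8 libraries.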
